A study of Bos taurus with 10 samples.

Results

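The 7 genes PAX7, MYF5, MYF6, MYOD1, MYOG, CDH15 and MSTN were followed in back muscle (longissimus dorsi) of Hanwoo, the native beef cattle of Korea. They were chosen by name, as the regulators of the muscle lineage and the growth inhibitor myostatin, and read from every probe set with 1 gene symbol in the platform annotation. Of the 7 genes, 5 were measured, by 7 probe sets, among 9155 named genes in all. PAX7 and CDH15 were not measured here. The data are 10 one-colour Affymetrix Bovine Genome Arrays of poly(A) RNA, 1 per sample, in 1 group without a control. The label of the first sample gives an age of about 2 years. Nothing but sample numbers and the stated design, which relates expression to beef traits of the cattle, marks the samples as separate animals. They are called animals 1 to 10 here, and all p-values hold only if they are independent. No trait value entered the work, and the genes are described by their level, their spread and their covariation across animals.

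The myogenic regulatory factors MYF5, MYOD1, MYOG and MYF6 are basic helix-loop-helix transcription factors that bind muscle gene promoters together with E proteins. MYF5 and MYOD1 commit cells to the muscle lineage, myogenin (MYOG) drives their differentiation, and MYF6, also called MRF4, is the member best known from mature fibres, while PAX7 and CDH15 mark the resident stem cells of muscle, the satellite cells. Myostatin (MSTN) is a secreted factor of the TGF-beta family that restrains muscle growth, and its loss is known to enlarge muscle in cattle. The other gene roles named below are background known mostly from mouse and human.

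Levels are log2(intensity + 16) after quantile normalization, and a level of 1 probe set cannot be set against that of another. Skeletal muscle markers were at the top of the range on every array, with 8 of 11 listed genes measured, gene means between 15.22 and 15.90 and a highest level of any gene of 16.07. The median deposited intensity per array was 111 to 134. Animal 5 stood apart from the other arrays. Control RNAs with a poly(A) tail, added during preparation, gave a log2 difference between 3′ and 5′ probes of 2.93 there and of 1.40 to 1.70 on the other 9 arrays. For the GAPDH and actin probe sets this difference was -0.33 to 0.05 on the other 9 arrays and 0.27 in animal 5. Of the 6271 genes tested, 27.6% had their lowest level of the 10 animals there and 21.1% their highest. The calls that rest on animal 5 are therefore given with and without it.

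MYF5 gave too little signal to be tested. Its mean level of 6.53 ± 0.85 (SD, n = 10) lay below the filter level of 6.98, the median over probe sets when controls are left out. Its level was 4.48 in the lowest animal, 6.84 at the median and 7.33 in the highest animal. The lowest value came from animal 1 alone, where the deposited intensity was 7.68, while the other 9 animals lay between 5.97 and 7.33. Without animal 1 the SD was 0.47.

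MYOD1 varied widely between animals. Its brighter probe set had a mean of 8.69 ± 0.85 (SD, n = 10), with 7.41 in the lowest animal, 8.59 at the median and 10.11 in the highest. In deposited intensity this is a range from 149 in animal 7 to 1095 in animal 9. The SD exceeded that of 97.0% of the 6271 genes past the filter, whose median SD was 0.36. Animals 1, 2 and 6 were the next highest, at 9.47, 9.46 and 9.12, and animal 5 was the second lowest at 7.71. In bulk muscle, fewer cells of a type and less RNA per cell cannot be told apart. The other MYOD1 probe set gave 4.96 in animal 7, a median of 7.55 and 8.78 in animal 9, so both probe sets placed the same animals at the ends. Across animals they rose together (r = 0.891, permutation p = 0.00013, rho = 0.952, permutation p = 0.00013, n = 10, both 0.00026 after adjustment over the 2 genes with a pair of probe sets), and r was 0.898 without animals 7 and 9, the farthest from the median. MYOD1 and the 3′ minus 5′ signal of the GAPDH and actin probe sets, often read as a measure of RNA quality, had r = -0.648 and rho = -0.527 (permutation p = 0.0412 and 0.124, adjusted to 0.391 and 0.441 over the 25 relations listed below), and r was -0.279 without animals 5 and 9.

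**Figure D1:**
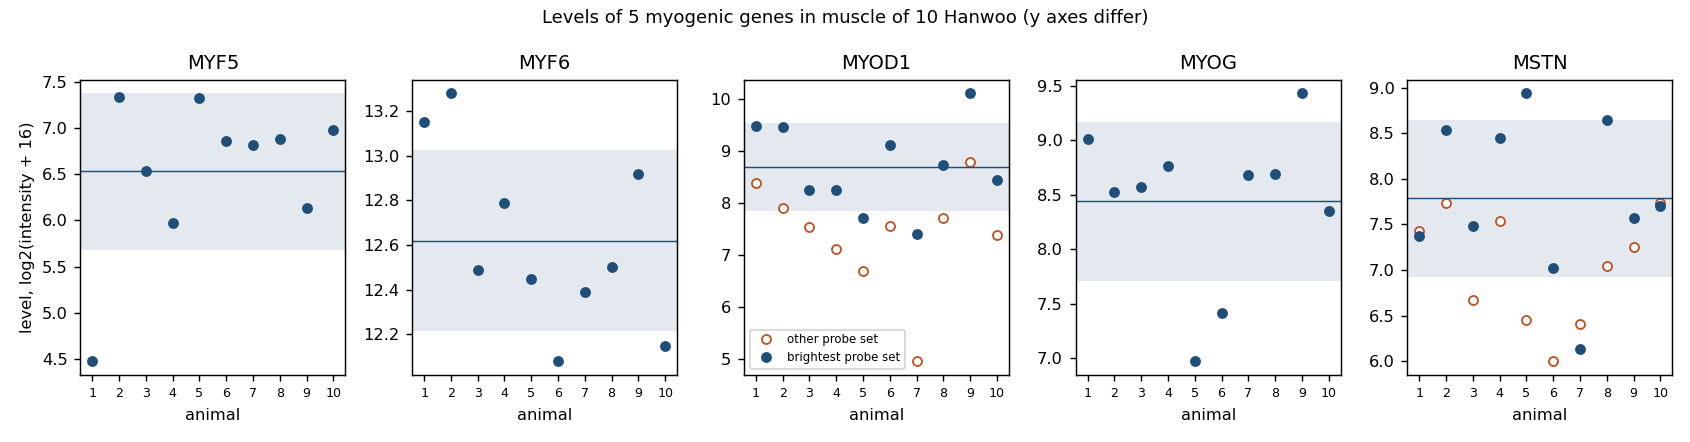
Level of each measured gene in each animal (x axis, animal number; y axis, log2(intensity + 16), with its own range per panel). Filled points are the brightest probe set, open points the other probe set, the line the mean and the band 1 SD to each side (n = 10). MYF5 is lowest in animal 1 at 4.48, and MYOG is low in animals 5 and 6, at 6.97 and 7.41.

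MYOG was even in 8 animals and low in the others. Its level was 6.97 in animal 5 and 7.41 in animal 6, against 8.35 to 9.43 in the other 8, with a median of 8.62 and a mean of 8.44 ± 0.73 (SD, n = 10). In deposited intensity it read 102 in animal 5 and 168 in animal 6, against 306 to 680 elsewhere. Its SD was above that of 94.4% of tested genes with all animals and above that of 88.6% without animal 5. It was 0.54 without animal 5 and 0.33 without both low animals. The low MYOG level in animal 5 came from the array with the high poly(A) control difference. The poly(A) difference in animal 6 was 1.69, inside the range of the others. MYOG and that difference had r = -0.755 and rho = -0.552 (permutation p = 0.0135 and 0.106, adjusted to 0.339 and 0.441 over 25 relations). Without animal 5, r was -0.406, and without animals 3 and 5, the farthest from the median difference, it was -0.539. With the GAPDH and actin difference MYOG had r = -0.641 and rho = -0.382 (permutation p = 0.0486 and 0.280, adjusted to 0.391 and 0.568), and r was 0.134 without animals 5 and 9. The part of the array or of RNA quality in the animal 5 value was not tested.

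MYF6 had the smallest SD of the 5 genes. Its mean was 12.62 ± 0.40 (SD, n = 10), with 12.08 in animal 6, a median of 12.50 and 13.28 in animal 2. Its SD stood above that of 60.4% of tested genes. Animals 1 and 2, at 13.15 and 13.28, lay above the rest, and animals 6 and 10, at 12.08 and 12.15, below it, with no gap that set any animal apart. MYF6 and MYF5 lie next to each other in the ARS-UCD2.0 gene table, with 0 protein-coding genes between them. Their levels had r = -0.457 and rho = -0.248 (permutation p = 0.187 and 0.492, adjusted to 0.504 and 0.724). That r was -0.734 without animals 1 and 2, the farthest from the MYF6 median, and ranged from -0.838 to -0.138 with each animal left out in turn.

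MSTN also varied widely, but its probe sets did not order the animals alike. The brighter probe set had a mean of 7.78 ± 0.86 (SD, n = 10), with 6.13 in animal 7, a median of 7.63 and 8.94 in animal 5. Its SD was above that of 97.2% of tested genes. Animals 8, 2 and 4 followed animal 5, at 8.65, 8.54 and 8.45. The other probe set had a mean of 7.03 ± 0.61 (SD, n = 10), with 5.996 in animal 6, a median of 7.15 and 7.74 in animal 2. In animal 5 it read 6.45, the third lowest value, while the brighter probe set was at its highest there. The brighter minus the other probe set was 2.49 in animal 5, against -0.27 to 1.60 in the other 9 animals. Across the 10 animals r was 0.395 (permutation p = 0.259, adjusted p = 0.259) and rho 0.406 (permutation p = 0.248, adjusted p = 0.248). Without animal 5, r was 0.658 (exact permutation p = 0.0531) and rho 0.650 (exact permutation p = 0.0666, n = 9). Without animals 6 and 7, the farthest from the median of the other probe set, r was -0.205. Which of the 2 probe sets follows the myostatin transcript was not tested, so the MSTN results below hold for the brighter probe set.

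**Figure D2:**
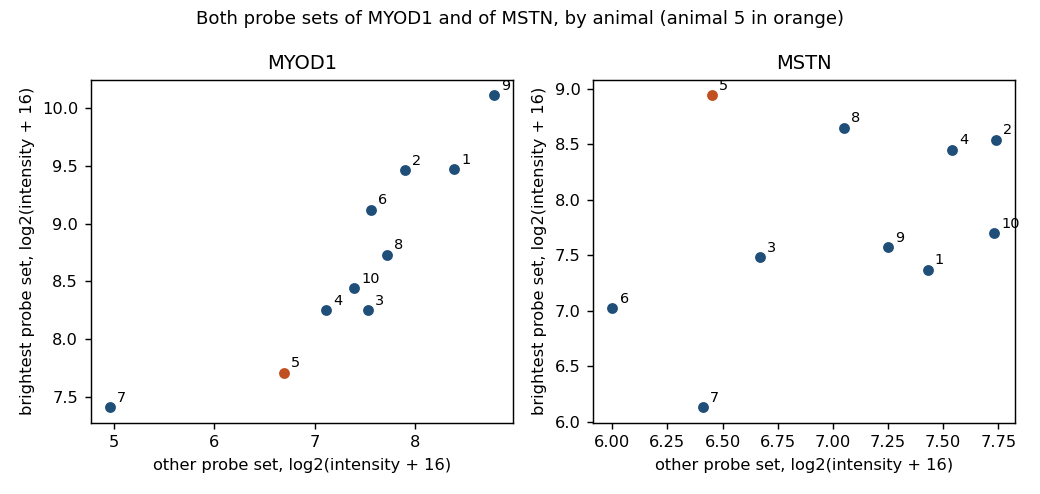
The brightest probe set (y axis) against the other probe set (x axis) of MYOD1 and of MSTN, in log2(intensity + 16), 1 point per animal with its number. The MYOD1 points rise along a line with r = 0.891, while animal 5, in orange, holds the highest MSTN value on the y axis and one of the lowest on the x axis.

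No pair of the 5 measured genes passed the test for covariation. The 10 pairs had r between -0.552 and 0.551, with 6 above 0, and 0 passed an adjusted p of 0.05 over the 25 relations computed (10 pairs, and the 5 genes with 3 array measures). Before adjustment, 0 pairs had p under 0.05 for r and 1 had for rho. That pair was MYF5 and MYOG, with a rho of -0.770 (permutation p = 0.0125, adjusted p = 0.311) and an r of -0.552 (permutation p = 0.107, adjusted p = 0.391). Without animals 5 and 6, the farthest from the MYOG median, r was -0.581. The pairs among the tested myogenic factors lay on the positive side. MYF6 and MYOG had r = 0.551 and rho = 0.624 (permutation p = 0.0952 and 0.0594, adjusted to 0.391 and 0.441) and r = 0.472 without animals 5 and 6. MYF6 and MYOD1 had r = 0.540 and rho = 0.552 (permutation p = 0.108 and 0.105, adjusted to 0.391 and 0.441) and r = 0.490 without animals 7 and 9. MYOD1 and MYOG had r = 0.440 and rho = 0.442 (permutation p = 0.206 and 0.205, adjusted to 0.504 and 0.536) and r = 0.621 without animals 5 and 6. Without animal 5 alone that r was 0.233. MSTN and MYOG had r = -0.226 and rho = -0.200 (permutation p = 0.527 and 0.583, adjusted to 0.629 and 0.730). That r was 0.169 without animal 5 and 0.290 without animals 5 and 7, the farthest from the MSTN median, but -0.135 without animals 5 and 6, so its sign changed with the animals left out.

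**Figure D3:**
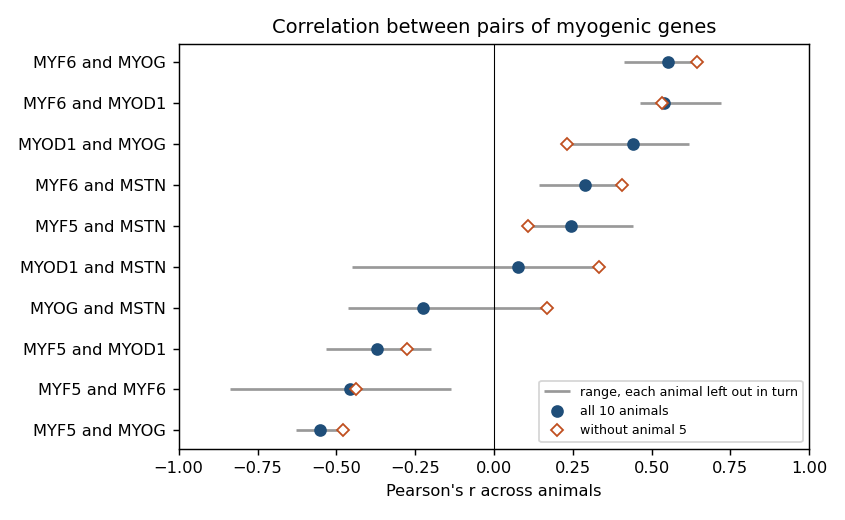
Pearson's r across animals (x axis) for each of the 10 pairs of measured genes (y axis). Filled points use all 10 animals, diamonds leave out animal 5, and grey lines span the values with each animal left out in turn. The highest value with all animals is 0.551, for MYF6 and MYOG, and the lines of the MSTN pairs with MYOD1 and MYOG cross 0.

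The genes that varied with each factor were sought with limma, a linear model with moderated errors. It fitted every other tested gene on the level of 1 factor in SD units, so that a slope is the log2 change per SD of that factor. The SD over all 10 animals was the unit also where animals were left out. In the MYF6 fit 0 of 6270 genes passed an adjusted p of 0.05 (0%), 321 genes (5.12%) had an unadjusted p under 0.05, and Spearman's test also called 0, with 433 unadjusted. The MYOD1 fit called 0 genes (0%) too, with 447 (7.13%) unadjusted, and Spearman's test called 0, with 511. In the MSTN fit it was 0 (0%) and 386 (6.16%), with 0 and 425 by Spearman's test, and the other MSTN probe set as covariate gave 0 calls and 867 unadjusted. The MYOG fit called 95 genes, 1.52% of those tested, of which 72 (1.15%) rose and 23 (0.367%) fell with MYOG, and 1484 (23.7%) had an unadjusted p under 0.05. With each array centred on its median in place of quantile normalization, 112 rose and 9 fell. Among the other tested members 0 of 3 passed in any fit. On MYOG, the slope of MYF6 was 0.22 (SE 0.11, adjusted p = 0.253), that of MYOD1 was 0.37 (SE 0.22, adjusted p = 0.324) and that of MSTN was -0.20 (SE 0.25, adjusted p = 0.665).

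The MYOG calls rested on animal 5. Without it limma called 0 genes, with 618 at an unadjusted p under 0.05, and a fit that also held the poly(A) control difference called 0, with 566. That difference was 2.93 in animal 5 and 1.40 to 1.70 elsewhere, so this fit is not independent of leaving animal 5 out. Spearman's test over all 10 animals called 0, with 562 unadjusted. Animal 5 held the lowest level in 68 of the 72 genes that rose and the highest in all 23 that fell, together 91 of 95, where 48.6% of all tested genes had an extreme there. All 95 kept the sign of their slope without animal 5, and 89 had an unadjusted p under 0.05 in the other 9 animals, which are part of both fits. Leaving out animal 6 gave 787 calls, 535 rising and 252 falling, and leaving out both gave 0, with 352 unadjusted. Leaving out animals 1, 2, 3, 4, 7 and 8 in turn gave 36, 15, 43, 11, 14 and 22, and leaving out animals 9 and 10 gave 83 and 125.

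**Figure D4:**
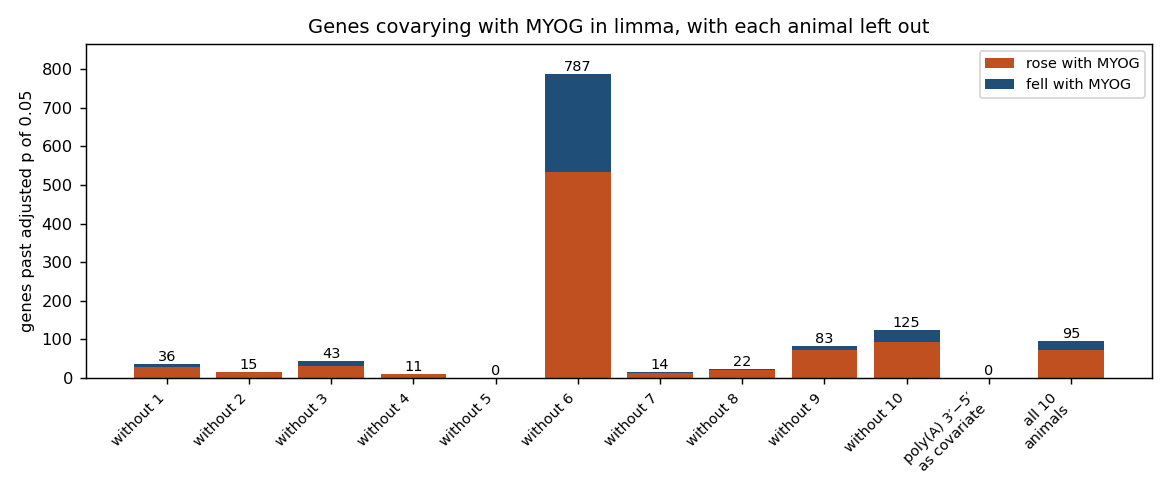
Number of genes covarying with MYOG at an adjusted p of 0.05 in limma (y axis), with each animal left out in turn, with the poly(A) difference in the model, and with all 10 animals (x axis). Orange counts genes that rose and blue genes that fell with MYOG. The count is 0 without animal 5, 787 without animal 6 and 95 with all animals.

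Among the 72 genes that rose with MYOG, the steepest were ADGRE5, an adhesion receptor of leukocytes, ABCF2, PLIN2, which coats lipid droplets, ISOC2, BCL2L12 and the ATP-gated channel P2RX5. ADGRE5 also missed the threshold with each of animals 1, 2, 3, 4, 7, 8 and 9 left out (adjusted p from 0.0535 to 0.0572). BCL2L12 and P2RX5 missed it in most of these fits. ABCF2, PLIN2 and ISOC2 passed with each animal left out except animal 5. PLIN2 read 4.99 in animal 5, a median of 7.25 and 8.25 in animal 9. Its slope was 0.85 (SE 0.14, adjusted p = 0.0294) with all animals and 0.59 (adjusted p = 0.320) without animal 5. ISOC2 had a slope of 0.82 (SE 0.11, adjusted p = 0.0186), and 0.70 (adjusted p = 0.279) without animal 5. The genes most like MYOG over the 10 animals were COA4, an assembly factor of cytochrome oxidase, with r = 0.956, CHKB, a choline kinase, with r = 0.948, STK25 with r = 0.942, and LMBRD1 and BCAP31 with r = 0.941 each. All 5 were lowest in animal 5. Without it their r with MYOG was 0.959 for COA4, 0.894 for CHKB, 0.885 for STK25, 0.880 for LMBRD1 and 0.935 for BCAP31. These 9 animals are part of the 10 over which the genes were chosen. Their slopes on MYOG with all animals were 0.49, 0.38, 0.43, 0.40 and 0.64 in that order. Without animals 5 and 6 the slopes were 0.38, 0.34, 0.25, 0.15 and 0.33, with adjusted p from 0.859 to 0.934.

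Among the 23 that fell with MYOG, the steepest were the transcription factor NFIB, CHRNA1, ITGB3, MASP1, the corepressor TLE1 and the tubulin cofactor TBCE. CHRNA1 encodes the alpha subunit of the muscle acetylcholine receptor and is a known target of myogenic factors, raised in denervated muscle. It read 12.10 in animal 5, against 9.37 to 10.65 in the other 9 animals. Its slope on MYOG was -0.63 (SE 0.13, adjusted p = 0.0405) with all animals, and -0.36 (adjusted p = 0.479) without animal 5. CHRNA1 also missed the threshold with each of animals 1, 2, 3, 4, 7, 8 and 9 left out and with median centring, while its slope stayed between -0.66 and -0.59 with adjusted p from 0.0501 to 0.0676. NFIB, ITGB3, TBCE and MASP1 missed it as well with each of animals 1, 2, 4, 7 and 8 left out. ITGB3 and TBCE also missed it without animal 9, and MASP1 without animal 3. NFIB read 11.46 in animal 5, with a median of 9.14 over all animals, and its slope of -0.68 (SE 0.13, adjusted p = 0.0343) was -0.34 (adjusted p = 0.426) without animal 5. The slopes of the other 4 without animal 5 were -0.57 for TBCE, against -0.53 with all animals, -0.51 for ITGB3, against -0.57, -0.48 for TLE1, against -0.53, and -0.36 for MASP1, against -0.55, and their adjusted p lay between 0.283 and 0.456. All 6 of these genes were highest in animal 5. With the probe sets of a gene averaged, TLE1 had a slope of -0.09 (adjusted p = 0.635) and TBCE -0.22 (adjusted p = 0.307). MASP1 had -0.33 (adjusted p = 0.0870) and NFIB -0.55 (adjusted p = 0.0299) in that setting. The slopes of TLE1, TBCE and MASP1 thus depended on the probe set used. ITGB3, and P2RX5 among the rising genes, did not pass the filter in that setting and so had no slope there.

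For the factors without any call, the genes nearest to one are given as values only. With MYF6 the smallest p on the positive side belonged to GPAM, which starts glycerolipid synthesis, with a slope of 0.34 (SE 0.08, adjusted p = 0.856), and next came the agouti signalling gene ASIP, with 1.03 (SE 0.25), and TEX30. On the negative side stood NT5C3A with a slope of -0.43 (SE 0.10, adjusted p = 0.856), RBM43 and the fibroblast receptor PDGFRA with -0.43 (SE 0.12). The genes most like MYF6 were ARFRP1 with r = 0.945, GPAM with 0.916, FKBP4 with 0.882, CMTR1 with 0.871 and ACTR1A with 0.867. With MYOD1 the positive side held PTI with a slope of 0.52 (SE 0.11, adjusted p = 0.673), ADSS1, the muscle adenylosuccinate synthase, with 0.49 (SE 0.12), and GDF7 with 1.07 (SE 0.27). On its negative side stood CRLS1, cardiolipin synthase, with -0.40 (SE 0.08, adjusted p = 0.673), ACOX3 and PPARGC1A, the coactivator of mitochondrial genes, with -0.49 (SE 0.12). PPARGC1A read 10.83 in animal 7, where MYOD1 was lowest, and 8.84 in animal 9, where MYOD1 was highest. The genes most like MYOD1 were FNTA with r = 0.917, NKIRAS2 with 0.876, EIF2AK1 with 0.870, ATG9A with 0.865 and SPRING1 with 0.853. PTI, ADSS1, GDF7, FNTA, ATG9A and SPRING1 were lowest in animal 5, where MYOD1 was second lowest. Without animal 5 the slopes of PTI, ADSS1 and GDF7 on MYOD1 were 0.48, 0.44 and 0.89. The r of FNTA, ATG9A and SPRING1 was then 0.899, 0.837 and 0.884.

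With MSTN the positive side held TBC1D4, a regulator of glucose transporter traffic, with a slope of 0.62 (SE 0.12, adjusted p = 0.720), INSIG2, which restrains sterol synthesis, with 0.47 (SE 0.10) and 0.36 without animal 5, and METTL21A. On the negative side MT1A, a metallothionein, had a slope of -0.98 (SE 0.18, adjusted p = 0.629), and PNP and LCAT had -0.58 (SE 0.13) and -0.64 (SE 0.16). Without animal 5, where both were lowest, these slopes were -0.44 and -0.41. The genes most like MSTN were MOCS1 with r = 0.870, TBC1D4 with 0.865, KMT2E with 0.859, ZBTB4 with 0.856 and INSIG2 with 0.853. INSIG2, MOCS1, KMT2E and ZBTB4 shared with MSTN its highest level in animal 5.

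The partners of these factors were taken from 6 lists. Over all tested genes the MYOG fit called 1.52%, and the MYF6, MYOD1 and MSTN fits called 0%. A list with 0 calls is therefore near the share over all genes and says little about the list. Of 12 measured cofactors and inhibitors of the myogenic factors, 10 were tested and 0 passed in any of the 4 fits. On MYOG their median slope was -0.14, against 0.02 over all tested genes, and it was -0.04 without animal 5. HEY1, a Notch target that represses myogenic factors, had a slope on MYOG of -0.63 (SE 0.15, adjusted p = 0.0540), and of -0.74 (adjusted p = 0.320) without animal 5. Its mean of 6.981 lay just above the filter level of 6.976, and its highest value, 8.03, came from animal 5. A slightly lower value there would have left HEY1 untested. MEF2C, which acts with the myogenic factors at muscle promoters, had a slope of 0.52 on MYF6 (SE 0.14, adjusted p = 0.856) and was highest in animal 1 at 10.05 and lowest in animal 6 at 7.37, against a median of 8.55. ID1, which binds E proteins and so blocks the myogenic factors, had a slope of 0.36 on MYOD1 (SE 0.20, adjusted p = 0.687). KAT2B, an acetylase of MYOD1, had -0.30 (SE 0.12, adjusted p = 0.673).

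In the list of satellite cell surface and niche genes, 8 of 13 measured genes were tested and 0 passed in any fit. FGFR4, a receptor for fibroblast growth factors in muscle precursors, had slopes of 0.47 on MYOD1 (SE 0.20, adjusted p = 0.673) and 0.44 on MYOG (SE 0.20, adjusted p = 0.206). Of 16 proliferation genes, 9 were tested and 0 passed. CDKN1A, the cell cycle inhibitor p21 that MYOD1 is known to induce, had a slope of 0.61 on MYOD1 (SE 0.25, adjusted p = 0.673), with 11.97 in animal 9, a median of 9.58 and 8.80 in animal 8. Animal 9 was also the highest for MYOD1 and MYOG.

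Of 16 measured genes of the embryonic sarcomere and of fusion, 13 were tested. CHRNA1 fell in the MYOG fit, and the other 12 did not pass in any. In the MYF6 fit 2 of 13 slopes were above 0, with a median of -0.20, where 53.5% of all tested genes had a slope above 0 and the median was 0.01. MYBPH had the steepest slope there, -0.80 (SE 0.59, adjusted p = 0.908). On MYOG it had 0.50 (SE 0.61, adjusted p = 0.657). MYL4, the light chain of embryonic and atrial muscle, had a slope of 0.74 on MYOD1 (SE 0.19, adjusted p = 0.673). Its mean of 6.989 lay just above the filter level of 6.976. MYH3, the embryonic myosin heavy chain, had a slope of -0.79 on MYOG (SE 0.32, adjusted p = 0.163). It was -1.47 (adjusted p = 0.283) without animal 5 and 0.15 without animals 5 and 6, so its direction turned when both low animals were left out. Of 7 synapse and denervation genes, 4 were tested and CHRNA1 was again the 1 that fell with MYOG. CHRNB1, the beta subunit of the same receptor, was also highest in animal 5, with a slope on MYOG of -0.34 (SE 0.11, adjusted p = 0.0879), and of -0.09 (adjusted p = 0.849) without that animal.

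Of 15 measured genes of myostatin and activin signalling, 10 were tested and 0 passed in any fit. On MSTN their median slope was 0.12, against -0.01 over all tested genes, and it was 0.07 without animal 5. ACVR2B, the activin receptor that binds myostatin, had a slope on MSTN of 0.45 (SE 0.15, adjusted p = 0.759), and both were lowest in animal 7, where ACVR2B read 5.71 against a median of 7.50. DCN, the matrix proteoglycan decorin, which can bind myostatin, had -0.31 (SE 0.23, adjusted p = 0.806), and -0.0045 without animal 5. On MYOD1 the steepest of the list was FSTL3, a binding protein of activins and myostatin, with 0.46 (SE 0.18, adjusted p = 0.673). SMAD4, the shared mediator of the pathway, had a slope of -0.31 on MYOG (SE 0.09, adjusted p = 0.0766) and was highest in animal 5, without which the slope was -0.18 (adjusted p = 0.654).

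The low MYOG animals 5 and 6 differed in the genes around it. The genes of this paragraph were picked after their values were seen, so they are a description. In animal 6 MYH3 read 11.32, against 6.60 to 8.09 in the other 9 animals. MYH8, the perinatal myosin heavy chain, read 10.07 there, against 6.71 to 7.88 elsewhere. Both developmental myosins were thus above every other animal's level in the animal with the lowest MYF6 and the second lowest MYOG. Other genes of the embryonic list did not share this. ACTC1 was highest in animal 9 at 15.04 and read 13.92 in animal 6, against a median of 11.35. MYBPH was highest in animal 3 at 12.80 and read 9.92 in animal 6, against a median of 9.84. FST, follistatin, which binds myostatin and activins, read 8.60 in animal 6, against 7.56 to 7.94. IGF2, a growth factor of muscle precursors, read 7.89 there, against 8.70 to 9.52. Of the 13 embryonic list genes tested, 4 were highest in animal 6, the others of these being MYL4 and TPM4, where 11.6% of all tested genes were highest and 10.8% lowest there. MYL4 had a mean of 6.989, just above the filter level of 6.976, and read 8.22 in animal 6. A lower value there would have left it untested, so its place in this count is not independent of animal 6. Another 2 of the 13, IGF2 and KLHL41, were lowest in animal 6. Animal 5 also held the highest level of 4 of the 13, MYL6B, CHRNA1, KLHL41 and MYBPC1, where 21.1% of all tested genes were highest. In animal 5 MYH3 and MYH8 read 7.87 and 7.75, inside the range of the other animals without animal 6.

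**Figure D5:**
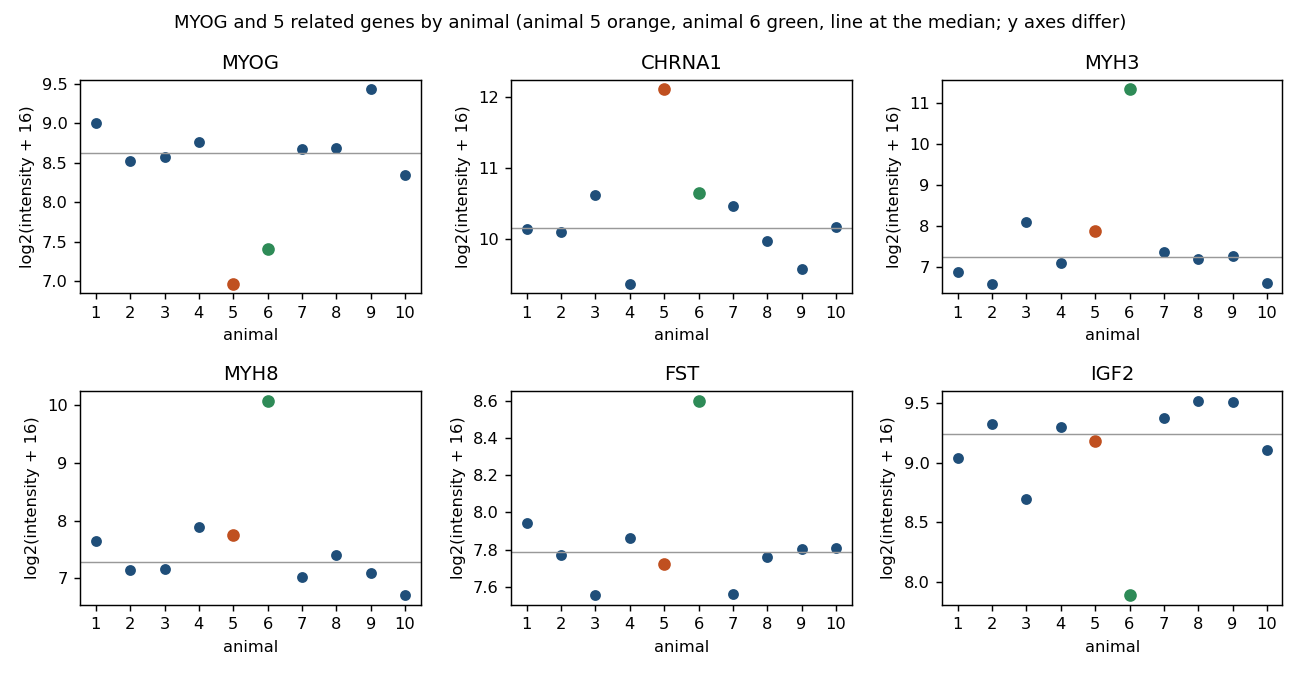
Levels of MYOG and of 5 related genes in each animal (x axis, animal number; y axis, log2(intensity + 16), with its own range per panel; line at the median). Animal 5 is orange and animal 6 green. CHRNA1 is highest in animal 5 at 12.10, and MYH3, MYH8 and FST are highest and IGF2 lowest in animal 6.

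Markers of some other cell types had extremes in these animals. The tested adipocyte (4), endothelium (4) and red cell (1) markers had 0 there. S100B, the 1 nerve and glia marker tested, was highest in animal 6. Of 8 skeletal muscle markers, MYH7 and TNNT1 were highest and CKM and DES lowest in animal 6, and 0 had an extreme in animal 5. Of 6 smooth muscle and pericyte markers, 2 were lowest in animal 5 and 2 others highest in animal 6. In animal 6, 7 of the 9 fibroblast and matrix markers were at their highest, beside 11.6% of all tested genes. The mean level of that list was 11.86, the highest of the 10 animals, against a lowest value of 9.94 in animal 1. In animal 5, 4 of those 9 and 5 of the 7 tested macrophage and leukocyte markers were at their lowest, beside the 27.6% of all tested genes that were. The macrophage list had a mean level of 6.67 in animal 5, the lowest of the 10, and 8.42 in animal 6, the highest. Of its 7 tested markers, 2 were at their highest in animal 6. No marker in these lists had a deposited intensity of 0. Their summed intensity over the 10 animals ranged from 12868 to 63340 for the fibroblast list and from 600 to 2744 for the macrophage list. The part of these cells in the levels of MYOG, MYF6 and the developmental myosins was not tested.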

How the data were processed

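The authors deposited a linear intensity for every probe set on each of 10 arrays, summarised with software not given in the sources used here. Trizol extraction, oligo(dT) enrichment of poly(A) RNA and biotin labelling came before, per the labels' protocols. From these intensities, log2(intensity + 16) was taken and quantile normalized over 24016 probe sets without the 112 controls; a fold on this scale understates changes of dim genes. Genes were named by the platform annotation where a probe set had 1 symbol (13292 probe sets, with 86 holding several and 10638 none). The brightest probe set stood for a gene. A gene was tested if its mean exceeded the median over probe sets when controls are left out (6271 genes). No sequence or coordinate is given.

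limma 3.58.1 in R 4.3.3 fitted each tested gene on 1 member, with Benjamini-Hochberg adjustment at 0.05 over all other tested genes. Correlations used two-sided permutation tests (100000 resamples, or every permutation with 9 animals) in SciPy 1.17.1, adjusted over 25 relations. Spearman's test per gene used the full null distribution of ranks. The fits were checked on simulated data. Genes were named by rule: up to 6 per direction past the test with the largest slopes, or else the 3 with the smallest p, the 5 with the largest r, and 2 to 4 per list. The members, lists and markers were chosen with earlier results of these data known. Alternatives covered scaling, pseudocount, probe set choice, filter, variance prior, rank test, poly(A) covariate and each animal left out. Leaving out animals 5 and 6 together, and the other probe set as covariate, were added after seeing the data. The number of arrays limits the precision.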

Additional observations from a re-analysis of the deposited data

Results flagged for a closer look

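Of 41 measures checked for a single animal far from the others, 12 had one. The test compares the gap to the nearest animal with the whole range (Dixon's 95% critical value). Chance alone gives about 1 in 20 for measures chosen without regard to their values. Not all of the 41 were chosen that way. MYH3, MYH8, FST and IGF2 were picked after their values were seen. CHRNA1, NFIB, PLIN2, BCL2L12, COA4 and BCAP31 were named for their covariation with MYOG. The count of 12 therefore cannot be set against 1 in 20. Among the members only the MYF5 probe set had one, with 4.48 in animal 1 against a nearest value of 5.97.

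In animal 5 the poly(A) control difference was 2.93. On the same array stood CHRNA1 at 12.10 and NFIB at 11.46, both highest, and PLIN2 at 4.99, BCL2L12 at 4.84, COA4 at 8.18 and BCAP31 at 8.95, all lowest. These 6 genes were named because they covaried with MYOG, which was itself lowest in animal 5, so they are not independent of one another. In animal 6 MYH3 was 11.32, MYH8 was 10.07 and FST was 8.60, all highest, and IGF2 was 7.89, the lowest.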

How the results depend on the processing

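None of the 17 named MYOG slopes changed sign under any of the 21 alternatives in which the gene was tested. Values that were not called could: the slope of DCN on MYOG was -0.29 without animal 5, against 0.32 with all animals. A kept sign did not mean a kept size. Without animals 5 and 6 P2RX5 had 0.03, against 0.77 with all animals, and MASP1 had -0.11, against -0.55. With probe sets of a gene averaged TLE1 had -0.09, against -0.53. The count of genes covarying with MYOG was 95. It was 253 with the deposited scaling, 161 where probe sets of a gene were averaged, 291 with the filter at the 75th percentile and 265 with a trended variance prior. It was 0 with no filter (1582 at an unadjusted p under 0.05), with the poly(A) covariate, by Spearman's test and without animals 5 and 6. With each animal left out it lay between 0 and 787. The causes were not tested, except that a stricter or absent filter changes how many genes are adjusted for. Of the 17 named MYOG slopes, 0 kept their call without animal 5, with the poly(A) covariate, with no filter or by Spearman's test. With no filter their slopes were identical and the adjusted p ran from 0.0515 to 0.0985. With the poly(A) covariate TBCE had -0.65 and ITGB3 -0.60, against -0.53 and -0.57, while CHRNA1 had -0.32, against -0.63. MYF6 had 1 call with no filter, BAX, chosen here after its value was seen. MSTN had 0 to 1 calls with each animal left out, the 1 being MT1A without animal 3. MYOD1 had 0 calls under every alternative run. Of the 25 relations, 0 to 1 passed with each animal left out, the 1 being MYF6 with the hybridization control level without animal 1 (r = -0.922, adjusted p = 0.0120), against r = -0.539 (permutation p = 0.109, adjusted p = 0.391) with all animals. The number of arrays, and for MYF5 a signal below the filter, limit what can be seen.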
